A study of Mus musculus with 6 samples.

Results

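The BCL2 family is the set of proteins that decides whether the outer membrane of the mitochondria stays closed or is opened, the step that commits a cell to apoptosis. Here 10 of its genes were described in Treg cells, a class of CD4 T cell that depends on the factor Foxp3 and keeps other immune cells from overreacting. They were taken by symbol from a list of names: 3 anti-apoptotic genes (Bcl2, Bcl2l1 and Mcl1), 2 effectors (Bax and Bak1) and 5 BH3-only genes (Bcl2l11, Bid, Bad, Pmaip1 and Bbc3). All 10 symbols were found among the 14608 genes listed, and all 10 were among the 12233 genes tested.

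The RNA came from mouse spleen, from cells that carried CD4 and YFP, a fluorescent reporter, and were sorted for them in every group, with 2 libraries of each of 3 genotypes, from 2 mice each as the submitters state it. These were wild type (WT), heterozygous for a Cdc42 knockout (Cdc42+/-) and homozygous for it (Cdc42-/-). Cdc42 is a small GTPase that controls the actin skeleton and cell polarity. The labels name no treatment, and they do not say which promoter drives YFP or the deletion, nor the strain, age or sex of the mice. Levels are given in RPKM, reads scaled to the length of the gene and the size of the library, so that genes of different length can be set side by side.

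Anti-apoptotic members hold the effectors Bax and Bak1 in check. BH3-only proteins sense stress or the loss of growth signals and either occupy the anti-apoptotic members or activate the effectors. Freed Bax and Bak1 form pores that let cytochrome c out, and the apoptosome then activates the caspases. In Treg cells, signals from the interleukin 2 receptor and the T cell receptor are known to set this balance, with Mcl1 as a survival factor and Bim, the protein of Bcl2l11, as a main antagonist.

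In Cdc42-/- against WT, Pmaip1 and Bak1 rose and Bcl2 fell, and the other 7 members did not pass the test. Pmaip1, which encodes the BH3-only protein Noxa, rose 8.53-fold in mean RPKM, from 4.30 ± 0.286 (SD, n = 2) in WT to 36.6 ± 2.27 in Cdc42-/-. Bak1 rose 2.10-fold, from 22.3 ± 1.29 to 46.9 ± 4.71 RPKM. Bcl2 was 1.64-fold lower, at 42.1 ± 5.42 RPKM against 69.2 ± 2.25. Over all genes tested, 11.4% passed in that comparison, 6.86% higher and 4.57% lower. Pmaip1 and Bak1 also rose in Cdc42-/- against Cdc42+/-, where 8.22% of all genes passed, 4.68% higher and 3.54% lower. None of the 10 members passed between Cdc42+/- and WT (0 in limma, 2 at an unadjusted p under 0.05, 0 by voom on the recovered reads), where 0% of all genes did.

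Before these results, the libraries themselves were compared. They held between 8556576 and 17796100 reads in the listed genes. Cdc42, the targeted gene, measured 166 and 161 (WT), 164 and 156 (Cdc42+/-), and 122 and 173 RPKM (Cdc42-/-). The labels do not say which part of the gene is deleted, and reads over the whole gene can come from outside that part, so these levels do not check the genotypes, which are those of the labels. Replicate 2 of Cdc42-/- stood apart. Its 10 myeloid marker genes summed to 1637 RPKM, against 49.1 to 95.8 RPKM in the other 5 libraries, none of the 10 was at 0 in any library, and Lyz2 was at 600.2 RPKM against at most 9.75 elsewhere. Its Foxp3 level was 58.4 RPKM, against 103 to 131 RPKM in the other libraries. The 5 proliferation markers summed to 31.2 and 33.1 (WT), 96.3 and 108 (Cdc42+/-), and 418 and 587 RPKM (Cdc42-/-). The 4 erythroid markers found summed to between 14.6 and 24.3 RPKM in WT and Cdc42+/-, with 1 marker at 0 in each of those libraries, and to 31.4 and 48.5 RPKM in Cdc42-/- with none at 0. The 4 B cell markers summed to between 10.1 and 18.5 RPKM and the 3 CD8 T and NK markers found to between 7.85 and 10.7 RPKM, each list with 1 marker at 0 in Cdc42-/- replicate 1 and none elsewhere. Of the latter, Cd8a was at 4.23 RPKM in Cdc42-/- replicate 2, against 0.229 to 1.13 RPKM in the other libraries. The 6 Treg and CD4 T markers summed to 990.05 and 788 RPKM in Cdc42-/-, below the 1110 to 1217 RPKM of the other 4 libraries. They did not move as 1 group. Cd3e and Ikzf2 fell against WT (limma adjusted p 0.0126 and 0.0311), and each call held in 8 of 13 alternative fits. Ctla4 was at 202 and 201 RPKM in Cdc42-/- against 130.03 to 157 elsewhere (limma adjusted p 0.0524 against WT). Cd8a and Ctla4 were singled out after their values were seen. Sex-linked expression differed too: the Y-linked gene Ddx3y measured 37.7 and 42.4 (WT), 0.126 and 0 (Cdc42+/-), and 0.0974 and 27.5 RPKM (Cdc42-/-). Xist, the RNA of the inactive X chromosome, measured 0.199 and 1.13 (WT), 99.3 and 93.3 (Cdc42+/-), and 87.4 and 21.2 RPKM (Cdc42-/-). Replicate 2 of Cdc42-/- was high in both, which no other library was, and whether it holds RNA of more than 1 mouse was not tested. Where a value is given without 1 library, its genotype is left with 1 library, which is assumed to vary like the other groups, so that such a p does not cover the spread within that genotype. The part of these differences in the results below was not tested. Values without replicate 2 of Cdc42-/- bear only on what that library carried. Replicate 1 of Cdc42-/- still differed from both WT libraries in Ddx3y, in Xist, and in the proliferation and erythroid sums. Between Cdc42+/- and WT, sex-linked expression and genotype cannot be told apart. In such bulk samples, fewer cells of a type and less RNA per cell cannot be told apart.

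The levels of the 10 genes in WT spanned from Mcl1 to Pmaip1. Mcl1, a short-lived anti-apoptotic protein, was the highest at 211 ± 16.2 RPKM and ranked 202 of the 12233 tested genes by WT mean. Bcl2 and Bax followed at 69.2 ± 2.25 and 62.8 ± 1.12 RPKM, then Bak1 at 22.3 ± 1.29 RPKM. Below them came Bid (17.6 ± 4.32), Bcl2l1 (16.3 ± 2.07), Bcl2l11 (10.04 ± 0.768), Bbc3 (8.92 ± 0.331) and Bad (7.85 ± 4.21 RPKM). Pmaip1 was the lowest at 4.30 ± 0.286 RPKM. In this order, the WT libraries of Bid overlapped those of Bcl2l1, and those of Bbc3 overlapped those of Bad, so these neighbours did not differ beyond their spread. The anti-apoptotic genes together made up most of the family's RNA, with WT sums of 308 and 285 RPKM, against 84.9 and 85.2 RPKM for the effectors and 43.7 and 53.8 RPKM for the BH3-only genes.

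**Figure D1:**
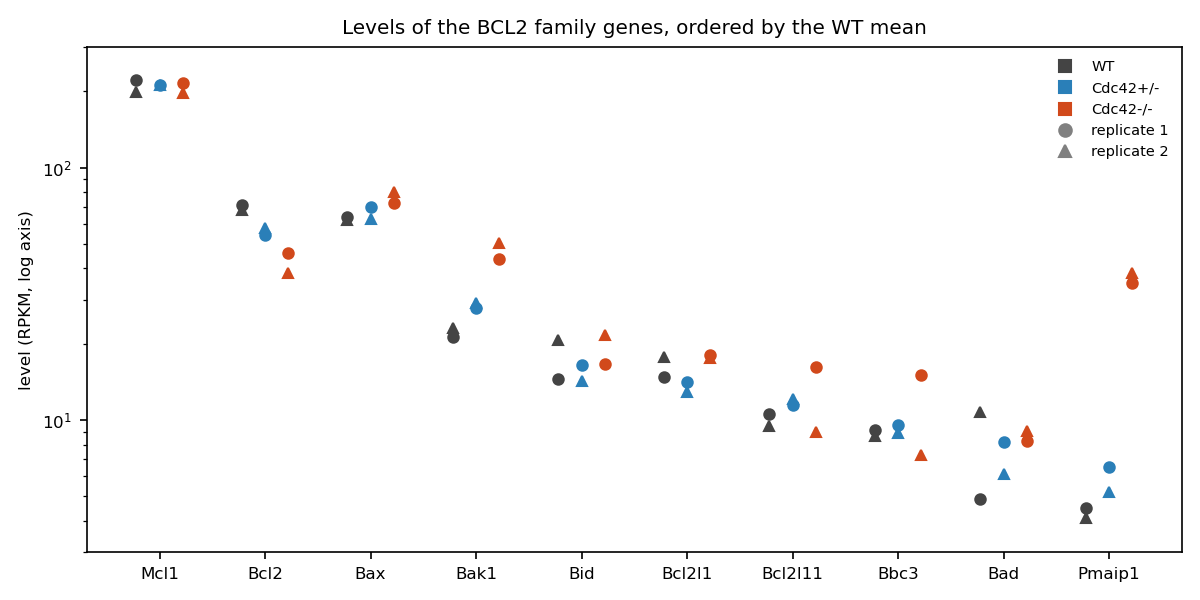
Levels of the 10 genes (RPKM, log axis), ordered by the WT mean, with 1 point per library, coloured by genotype and shaped by replicate. Pmaip1 is last in WT at 4.50 and 4.09 RPKM and rises to 35.0 and 38.2 RPKM in Cdc42-/-, and Bak1 of Cdc42-/- meets the Bcl2 points of that genotype.

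The order changed in the knockout genotypes. In Cdc42-/-, Pmaip1 moved from the place 10 it had in WT to place 5, and Bak1 (46.9 ± 4.71 RPKM) came before Bcl2 (42.1 ± 5.42 RPKM), with overlapping libraries. Bax stood at place 2 in both knockout genotypes, above Bcl2 without overlap. In Cdc42+/-, Bad and Pmaip1 were the lowest, with overlapping libraries. Mcl1 kept place 1 in all 3 genotypes. The summed BH3-only level was 91.3 and 85.3 RPKM in Cdc42-/-, above the 43.7 to 53.8 RPKM of the other 4 libraries, and Pmaip1 made up 38.4% and 44.8% of it, against 7.61% to 12.5% in those 4.

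**Figure D2:**
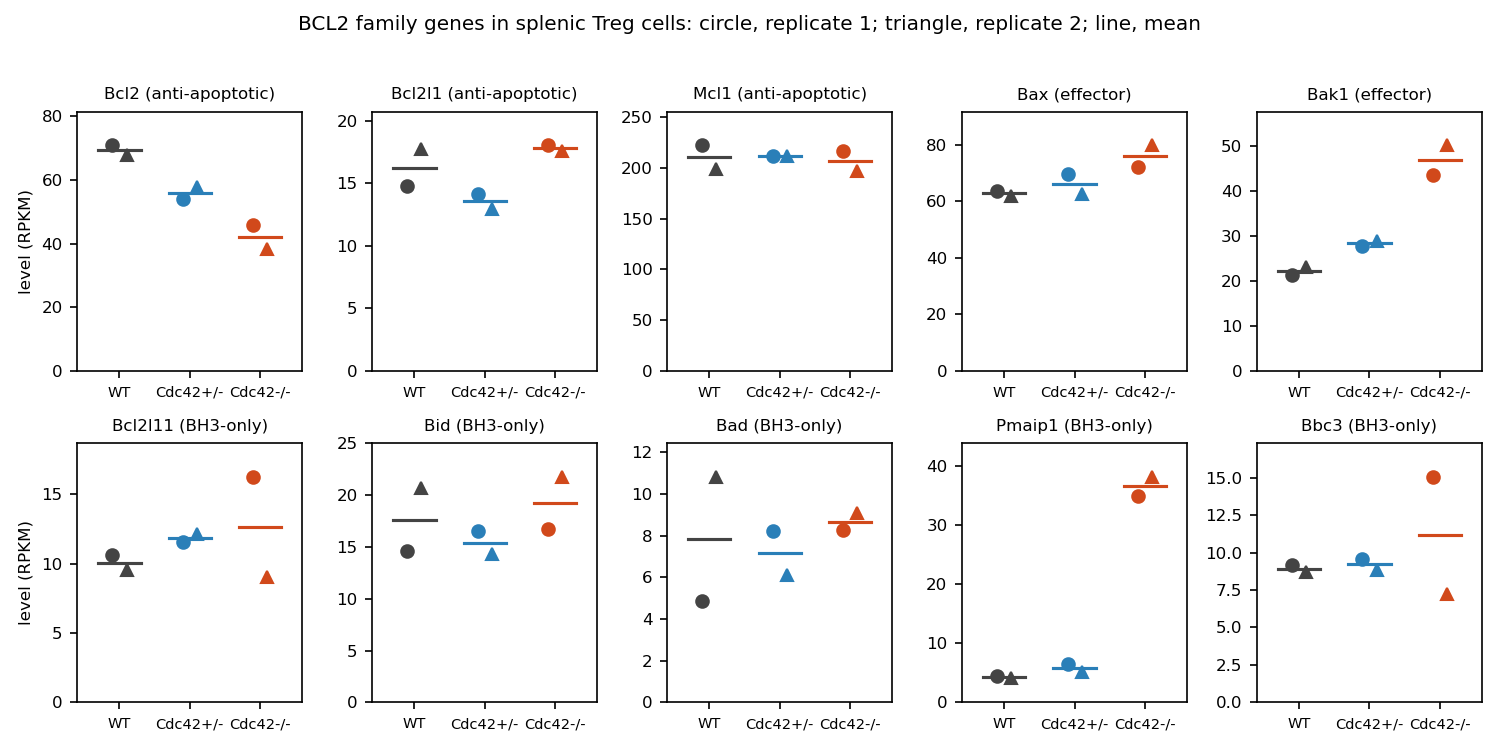
Level of each gene (RPKM, axes from 0) in the 6 libraries by genotype, with circles for replicate 1, triangles for replicate 2 and a line at the mean of 2. Pmaip1, Bak1, Bcl2 and Bax separate Cdc42-/- from WT without overlap, as 56% of all genes tested do. Mcl1 stays between 197 and 222 RPKM, and Bcl2l11 and Bbc3 differ between the Cdc42-/- replicates.

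Promoter sequence is shown for the called members for which the reference table has a window, Bak1 and Bcl2, and for Mcl1 as the member whose level varied least. The table held windows for 9 of the 10 genes. Each sequence is the 250 bases before the RefSeq start site, from the GRCm38.p6 build, written 5′ to 3′ on the gene's strand. Capitals mark GC boxes, searched as GGGCGG on both strands. Bcl2 is at chr1:106714291-106714540 (minus strand), Bak1 at chr17:27028628-27028877 (minus strand) and Mcl1 at chr3:95658471-95658720 (plus strand).
Bcl2: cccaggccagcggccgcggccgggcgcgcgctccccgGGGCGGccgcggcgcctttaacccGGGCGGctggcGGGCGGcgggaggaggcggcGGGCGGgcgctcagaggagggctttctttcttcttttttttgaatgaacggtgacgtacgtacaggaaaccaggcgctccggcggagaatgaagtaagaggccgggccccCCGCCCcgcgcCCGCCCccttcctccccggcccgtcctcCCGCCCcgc
Bak1: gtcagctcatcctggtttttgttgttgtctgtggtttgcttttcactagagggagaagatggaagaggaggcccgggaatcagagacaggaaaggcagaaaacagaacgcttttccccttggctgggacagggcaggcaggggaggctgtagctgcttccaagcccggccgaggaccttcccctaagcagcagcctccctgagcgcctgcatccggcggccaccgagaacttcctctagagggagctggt
Mcl1: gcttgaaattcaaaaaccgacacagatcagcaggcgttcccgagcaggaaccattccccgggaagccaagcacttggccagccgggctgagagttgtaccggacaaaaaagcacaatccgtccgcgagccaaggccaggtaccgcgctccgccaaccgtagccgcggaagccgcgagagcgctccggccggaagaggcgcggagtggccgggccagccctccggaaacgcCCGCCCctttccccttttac
The Bcl2 window is 74.8% G or C and holds 7 GC boxes, none overlapping another. The Mcl1 window (64.4%) holds 1, and the Bak1 window (58.4%) holds 0. A GC box was found in 32.7% of the 32851 windows of this length that were searched. The other letters searched on both strands were the E2F sites TTTCGCGC (0.256% of windows) and TTTGGCGC (0.417%), the CRE TGACGTCA (1.55%), the E-box CACGTG (6.02%), the STAT site TTCNNNGAA (7.02%), the FoxO site TGTTTAC (3.17%) and the CCAAT box CCAAT (33.8%). None of these was in the 3 windows printed. Among the other members, an E2F match (TTTCGCGC) lay 145 bases before the second start site of Bcl2l1, a FoxO match lay 227 bases before the first start site of Bcl2l11 and 167 bases before the second start site of Bbc3, and an E-box lay 9 bases before the start site of Bax and 64 bases before the third start site of Bbc3. CCAAT boxes were in windows of Bcl2l11, Bad and Bbc3. A match is a run of letters and does not show that a factor binds there.

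Of the anti-apoptotic genes, only Bcl2 passed the test in Cdc42-/- against WT, with 1 of 3 lower and 0 higher. The 3 had a median log2 fold change of -0.03 (0.039 without Cdc42-/- replicate 2), against 0.01 over all genes tested. Bcl2 (gene ID 12043), which holds BH3-only proteins and Bax at the mitochondrion, measured 70.8 and 67.7 (WT), 54.1 and 57.6 (Cdc42+/-), and 46.0 and 38.3 RPKM (Cdc42-/-). The 3 genotypes did not overlap, with WT highest and Cdc42-/- lowest. Its log2 fold change in Cdc42-/- against WT was -0.71 (SE 0.12, limma adjusted p 0.0178), from at least 3266 reads per library. Bcl2 did not pass with only the WT and Cdc42-/- libraries fitted (adjusted p 0.0692), without WT replicate 1 (0.134) or 2 (0.122), and without Cdc42+/- replicate 1 (0.0690) or 2 (0.0689). Without replicate 2 of Cdc42-/-, which carried the myeloid RNA, Bcl2 was lower by a log2 fold change of -0.58 (adjusted p 0.00738). Against Cdc42+/- the value was -0.40 (SE 0.12, adjusted p 0.0980), and it passed without Cdc42-/- replicate 1 (-0.53, adjusted p 0.00601), where 4263 of the 12233 genes did and the lone Cdc42-/- library was the one with myeloid RNA.

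In Cdc42+/- against WT the log2 fold change of Bcl2 was -0.30 (95% interval -0.60 to -0.01, adjusted p 0.999). The authors' deposited table gives Bcl2 a log2 fold change of -0.34 with an adjusted p of 0.00590 in that comparison, and of -0.76 with 0.0163 in Cdc42-/- against WT. The 2 analyses thus differ on the call in Cdc42+/-, while both give a lower level.

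Mcl1 (gene ID 17210) was the steadiest of the 10. It measured 222 and 199 (WT), 212 and 211 (Cdc42+/-), and 216 and 197 RPKM (Cdc42-/-), so that all 3 genotypes overlapped. The highest library was 1.13-fold above the lowest. Its log2 fold change in Cdc42-/- against WT was -0.03, with a 95% interval from -0.30 to 0.24 (adjusted p 0.883).

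Bcl2l1 (gene ID 12048), which encodes Bcl-xL, had WT libraries at 14.8 and 17.7, Cdc42+/- at 14.2 and 12.98, and Cdc42-/- at 18.0 and 17.6 RPKM. Cdc42-/- overlapped WT and lay above Cdc42+/-. The log2 fold change was 0.13 (interval -0.20 to 0.46, adjusted p 0.561) against WT and 0.37 (interval 0.04 to 0.70, adjusted p 0.149) against Cdc42+/-, so neither passed. The value covers all reads of the gene and does not separate its long, protective from its short, pro-apoptotic splice form.

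**Figure D3:**
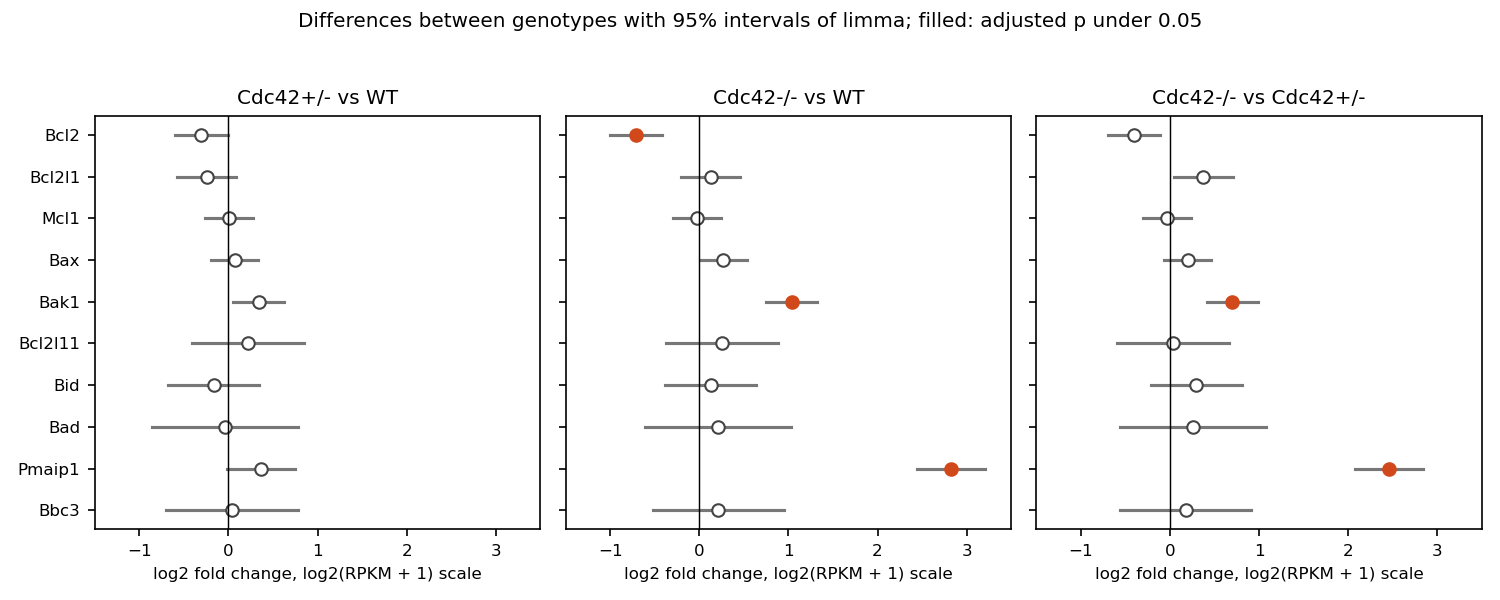
Log2 fold change of each gene on the log2(RPKM + 1) scale in the 3 comparisons, with limma's 95% intervals as bars and filled points for an adjusted p under 0.05. In Cdc42-/- against WT, Pmaip1 (2.83), Bak1 (1.04) and Bcl2 (-0.71) are filled, and in Cdc42-/- against Cdc42+/- Pmaip1 and Bak1 are.

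Of the effectors, Bak1 passed against both other genotypes and Bax against neither. Bak1 (gene ID 12018), which sits in the outer mitochondrial membrane, measured 21.4 and 23.2 (WT), 27.9 and 29.0 (Cdc42+/-), and 43.5 and 50.2 RPKM (Cdc42-/-). The genotypes did not overlap, and Cdc42+/- lay between the others. For Cdc42-/- the log2 fold change was 1.04 against WT (SE 0.12, adjusted p 0.00493) and 0.70 against Cdc42+/- (SE 0.12, adjusted p 0.0234). The call against WT was lost without WT replicate 1 (0.0628) or 2 (0.0509). The call against Cdc42+/- was lost in the fit of those genotypes alone (0.0711), without WT replicate 1 (0.0710) or 2 (0.0710) and without Cdc42+/- replicate 1 (0.217) or 2 (0.196). Without Cdc42-/- replicate 2, both passed, at 0.94 (adjusted p 0.0025) and 0.60 (0.0153). In Cdc42+/- against WT the value was 0.34 (interval 0.05 to 0.63, adjusted p 0.999). Ggnbp1, whose span overlaps Bak1 in RefSeq, was at no more than 1.04 RPKM in any library.

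Bax (gene ID 12028), which moves from the cytosol to the mitochondrion when activated, measured 63.5 and 62.0 (WT), 69.7 and 62.5 (Cdc42+/-), and 72.1 and 79.7 RPKM (Cdc42-/-). Cdc42-/- lay above both other genotypes, which overlapped each other. The log2 fold change in Cdc42-/- against WT was 0.27 (interval 0.0045 to 0.53, adjusted p 0.164). It passed without Cdc42-/- replicate 1 (0.34, adjusted p 0.0349), a setting with only the library that carried myeloid RNA in that arm and with 4433 of the 12233 genes past the threshold, and in no other of the 13 alternatives.

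The BH3-only genes had 1 of 5 higher in Cdc42-/- against WT, which was Pmaip1, and 0 lower. Their median log2 fold change was 0.22, and without Cdc42-/- replicate 2 it was 0.64 and 3 of the 5 passed, where 2263 of the 12233 genes tested passed and the median over all 12233 was 0.0015. Pmaip1 (gene ID 58801), whose protein Noxa binds Mcl1 and is induced by p53 and by stress, measured 4.50 and 4.09 (WT), 6.53 and 5.19 (Cdc42+/-), and 35.0 and 38.2 RPKM (Cdc42-/-). Both Cdc42-/- libraries stood far above the other 4, and the Cdc42+/- libraries lay above WT without overlap. The values rest on 93 to 266 reads in WT and Cdc42+/- and on 1028 and 927 reads in Cdc42-/-. For Cdc42-/- the log2 fold change was 2.83 against WT (SE 0.16, adjusted p 0.00144), rank 97 from the highest of 12233 tested genes, and 2.46 against Cdc42+/- (SE 0.16, adjusted p 0.00739), rank 51. The first call held in 13 of 13 alternatives. The second was lost without Cdc42+/- replicate 1 (0.110) or 2 (0.118), settings in which 0 genes passed in that comparison. Without Cdc42-/- replicate 2 the values were 2.77 (adjusted p 0.000617) and 2.40 (0.00181). In Cdc42+/- against WT Pmaip1 stood at 0.37 (interval -0.01 to 0.75, adjusted p 0.999). The authors' deposited table gives 3.04 for Cdc42-/- against WT, with an adjusted p of 3.22e-21.

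Bcl2l11 and Bbc3, the genes of Bim and Puma, shared a pattern among the libraries. Both proteins can bind every anti-apoptotic member and activate Bax and Bak1. Bcl2l11 (gene ID 12125) measured 10.6 and 9.50 (WT), 11.5 and 12.1 (Cdc42+/-), and 16.2 and 9.01 RPKM (Cdc42-/-). Bbc3 (gene ID 170770) measured 9.16 and 8.69 (WT), 9.56 and 8.87 (Cdc42+/-), and 15.1 and 7.26 RPKM (Cdc42-/-). For both genes, replicate 1 of Cdc42-/- was the highest of the 6 libraries and replicate 2 the lowest, so that Cdc42-/- spanned the other genotypes. The log2 fold changes in Cdc42-/- against WT were 0.25 for Bcl2l11 (interval -0.38 to 0.88, adjusted p 0.553) and 0.22 for Bbc3 (interval -0.52 to 0.95, adjusted p 0.674). Without Cdc42-/- replicate 2, they were 0.64 (adjusted p 0.0277) and 0.69 (adjusted p 0.0243), and both passed, with the spread taken from the other genotypes. Between the Cdc42-/- replicates, Bcl2l11 differed 1.80-fold and Bbc3 2.07-fold. Without replicate 1 instead, they were -0.14 (0.509) and -0.26 (0.240). Against Cdc42+/-, Bbc3 passed without replicate 2 (0.65, adjusted p 0.0356) and Bcl2l11 did not (0.43, 0.106). The direction of both thus rested on which Cdc42-/- library was used. Without Cdc42-/- replicate 2, 5 of the 10 members passed against WT, where 2263 of all genes tested did.

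Bid and Bad showed no separation between Cdc42-/- and WT. Bid (gene ID 12122), which caspase 8 cleaves to link death receptors to the mitochondrion, ranged from 14.3 to 21.8 RPKM, with 14.6 and 20.7 (WT), 16.5 and 14.3 (Cdc42+/-), and 16.7 and 21.8 RPKM (Cdc42-/-). Bad (gene ID 12015), which growth factor signals inactivate by phosphorylation, measured 4.87 and 10.8 (WT), 8.23 and 6.13 (Cdc42+/-), and 8.26 and 9.07 RPKM (Cdc42-/-). The WT replicates of Bad differed 2.22-fold, the widest replicate gap of any member in WT. The log2 fold changes in Cdc42-/- against WT were 0.13 for Bid (interval -0.39 to 0.64, adjusted p 0.725) and 0.21 for Bad (interval -0.61 to 1.03, adjusted p 0.712). Bad overlaps Gpr137 in RefSeq, which was at 3.45 to 4.56 RPKM, and without a stated strand setting their reads may have been shared.

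**Figure D4:**
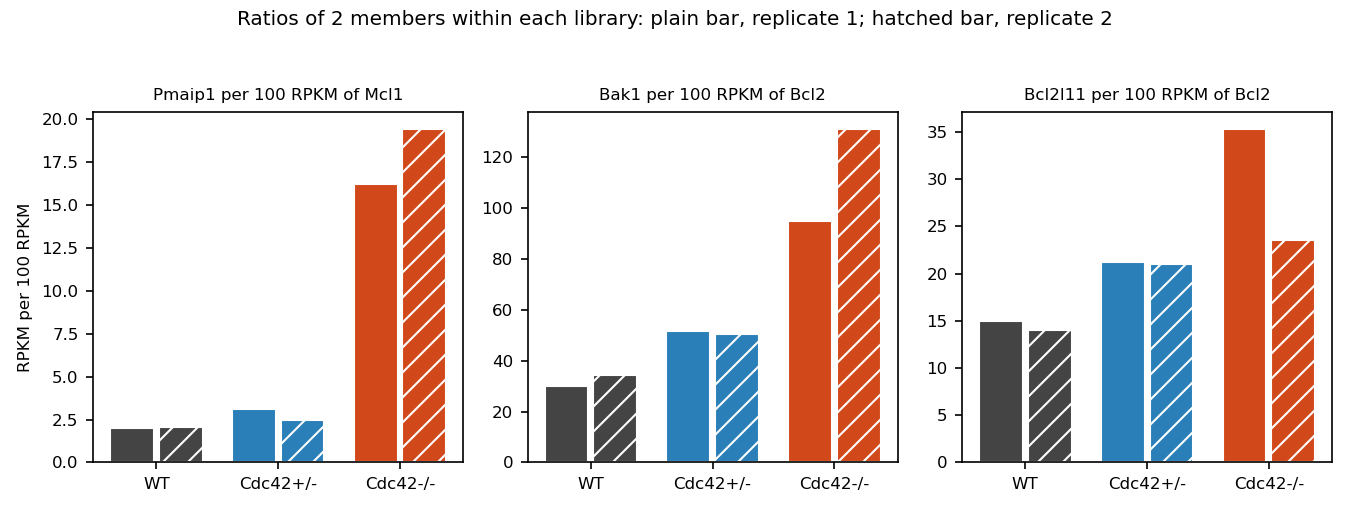
Ratios of 2 genes within each library, as RPKM of the first per 100 RPKM of the second, with plain bars for replicate 1 and hatched bars for replicate 2. Pmaip1 per 100 RPKM of Mcl1 is 16.2 and 19.4 in Cdc42-/- against at most 3.08 elsewhere, and Bak1 per 100 RPKM of Bcl2 is 94.7 and 131.

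Ratios within a library do not depend on its scaling, and they are given here as a description. For each 100 RPKM of Mcl1, Pmaip1 measured 2.02 and 2.05 (WT), 3.08 and 2.45 (Cdc42+/-), and 16.2 and 19.4 RPKM (Cdc42-/-). For each 100 RPKM of Bcl2, Bak1 measured 30.2 and 34.3 (WT), 51.5 and 50.3 (Cdc42+/-), and 94.7 and 131 RPKM (Cdc42-/-). Both ratios kept the order WT, Cdc42+/-, Cdc42-/- without overlap. Pmaip1, Bak1 and Bcl2 already separated the genotypes on their own, so this order is not added evidence. Bcl2l11 per 100 RPKM of Bcl2, which sets Bim against a protein that holds it, was 14.9 and 14.0 (WT), 21.3 and 21.0 (Cdc42+/-), and 35.3 and 23.5 (Cdc42-/-). It followed the same order without overlap, which Bcl2l11 alone did not. In Cdc42-/- replicate 2, both genes of this ratio were at their lowest.

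Lists of other genes of cell death were then described, to place the members. Between Cdc42+/- and WT, 0 genes of the 5 lists passed in limma. This count depends on the fit for Birc5, of the inhibitor of apoptosis family, which had a log2 fold change of 1.32 there (SE 0.19, limma adjusted p 0.278) and passed in 4 of 13 alternatives, with adjusted p from 0.0140 to 1. That comparison had 529 genes (4.32%) at an unadjusted p under 0.05, 2 of the 10 members (Bak1, 0.0282, and Bcl2, 0.0448) and 2 list genes among them, and voom on the recovered reads called 1 gene. At the same unadjusted level stood 4 members in Cdc42-/- against WT, where 29.3% of all genes did, and 4 in Cdc42-/- against Cdc42+/-, where 27.1% did. The Cdc42+/- and WT libraries did not overlap for 5 of the 10 members, where 43.2% of all genes tested showed that. Between Cdc42-/- and WT they did not overlap for 4 members, where 56% of all genes did, and in Cdc42-/- against Cdc42+/- for 7, where 59% did.

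**Figure D5:**
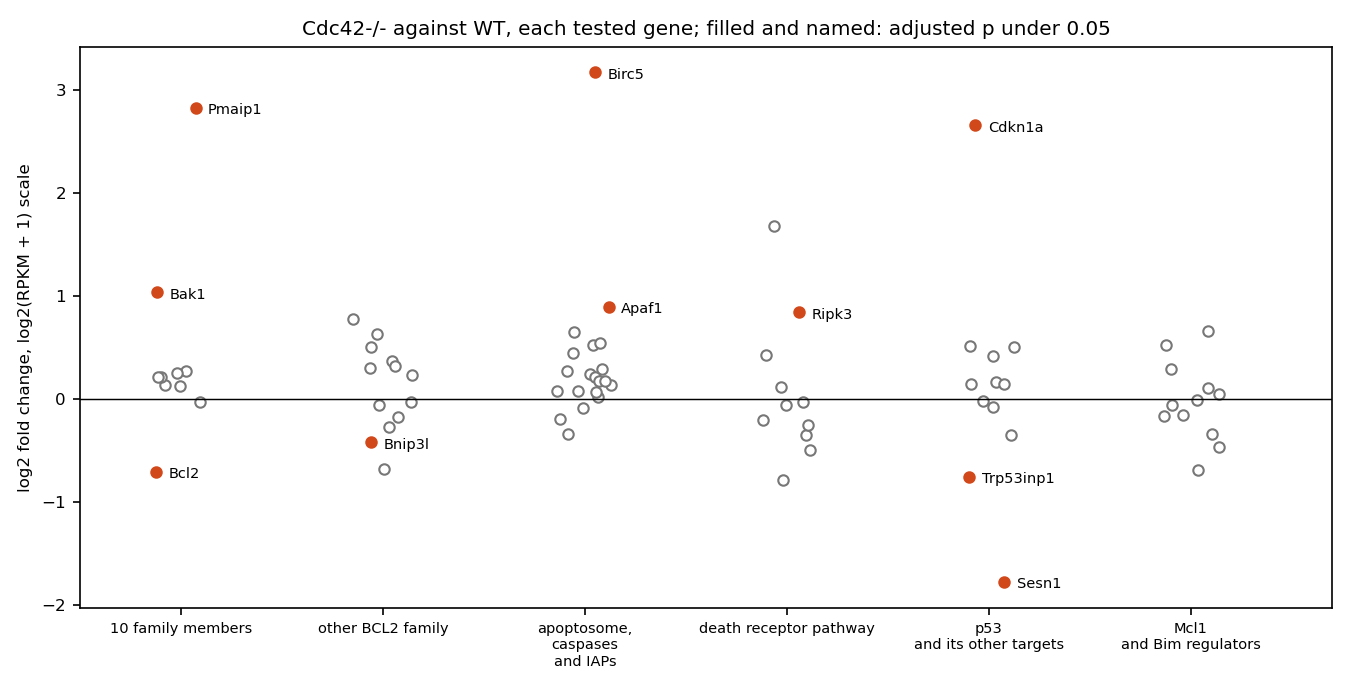
Log2 fold change in Cdc42-/- against WT on the log2(RPKM + 1) scale for each tested gene of the family and of 5 further lists, with filled, named points for an adjusted p under 0.05. Birc5 and Apaf1 rise among the genes downstream of the mitochondrion, while Sesn1 and Trp53inp1 fall and Cdkn1a rises in the p53 list.

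Of 16 symbols of other BCL2 family genes 14 were found and 13 tested. In Cdc42-/- against WT 0 rose and 1 fell, with a median of 0.23, where 11.4% of all genes tested passed. The gene that fell was Bnip3l, whose protein Nix helps to remove mitochondria. It measured 56.8 and 57.5 (WT), 56.3 and 52.9 (Cdc42+/-), and 41.6 and 43.2 RPKM (Cdc42-/-) (log2 fold change -0.42, SE 0.10, adjusted p 0.0430). Its call held in 6 of 13 alternatives and was lost without either WT library (0.195 and 0.224) or either Cdc42+/- library (0.139 and 0.139), and with only the 2 genotypes fitted (0.137). Bcl2a1b, of the A1 group of survival genes, was at 25.8 and 32.9 RPKM in WT and 12.8 and 24.6 RPKM in Cdc42-/- (-0.68, adjusted p 0.183), with the higher value in the library that carried myeloid RNA. The A1 genes are near-identical copies, so their reads may have been split between them. Without Cdc42-/- replicate 2 the list's median was -0.20.

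Downstream of the mitochondrion, 2 of 20 genes rose in Cdc42-/- against WT and 0 fell, where 11.4% of all genes tested passed. The list's median was 0.19 (0.25 without Cdc42-/- replicate 2). Apaf1, the scaffold of the apoptosome, rose from 8.64 ± 0.972 to 17.2 ± 4.40 RPKM (0.89, SE 0.20, adjusted p 0.0383). Birc5 (survivin) belongs to the family of inhibitor of apoptosis proteins and also to the machinery of chromosome segregation. It rose from 1.302 ± 0.0883 to 19.9 ± 3.72 RPKM (3.17, SE 0.19, adjusted p 0.00144), as did 5 of the 5 proliferation markers in that comparison. Apaf1 passed in 5 of 13 alternatives and was lost without either WT library (0.142 and 0.218) or either Cdc42+/- library (0.112 and 0.112), and with only the 2 genotypes fitted (0.115). Birc5 passed in 13 of 13.

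In the death receptor list, 1 of 11 genes rose in Cdc42-/- against WT and 0 fell, where 11.4% of all genes tested passed. The list's median was -0.06 (-0.06 without Cdc42-/- replicate 2). Ripk3, the kinase that drives necroptosis, rose from 21.2 ± 1.22 to 38.8 ± 2.04 RPKM (0.84, SE 0.11, adjusted p 0.00854). It did not pass without WT replicate 1 (0.0867) or 2 (0.0699). Fasl, the ligand of the death receptor Fas, fell against Cdc42+/-, from 3.42 ± 0.171 to 1.09 ± 0.106 RPKM (-1.08, SE 0.21, adjusted p 0.0356). That call held in 5 of 13 alternatives, and without either WT library (0.0796 and 0.0771) or either Cdc42+/- library (0.252 and 0.289), or with only the 2 genotypes fitted (0.0808), it was lost.

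The list of p53 and its other targets, which leaves out Bax, Pmaip1 and Bbc3, moved in both directions. Of 12 genes tested, 1 rose and 2 fell in Cdc42-/- against WT, where 11.4% of all genes tested passed. The list's median was 0.14 (-0.0037 without Cdc42-/- replicate 2). Cdkn1a, which encodes the cell cycle inhibitor p21, measured 0.710 and 2.01 (WT), 1.63 and 1.43 (Cdc42+/-), and 11.6 and 15.3 RPKM (Cdc42-/-) (2.66, SE 0.31, adjusted p 0.00539). Both Cdc42-/- libraries stood above the other 4. Sesn1, which restrains growth signalling, fell from 50.6 ± 1.65 to 14.5 ± 5.57 RPKM (-1.78, SE 0.24, adjusted p 0.00821). Trp53inp1 fell from 100.4 ± 2.52 to 59.3 ± 9.16 RPKM (-0.76, SE 0.14, adjusted p 0.0240). Without WT replicate 1 or 2, Sesn1 (0.0852 and 0.0822) and Trp53inp1 (0.156 and 0.146) did not pass, and Trp53inp1 was also lost without Cdc42+/- replicate 1 or 2 (0.0678 and 0.0676) and with only the WT and Cdc42-/- libraries fitted (0.0679). Cdkn1a passed in 13 of 13 alternatives.

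The list of regulators of Mcl1 and Bim had 0 of 12 genes that passed in Cdc42-/- against WT, with a median of -0.04 (0.045 without Cdc42-/- replicate 2). In limma 4 were at an unadjusted p under 0.05, where 29.3% of all genes were. Against Cdc42+/- the list had 0 as well, with 3 at an unadjusted p under 0.05, where 27.1% of all genes were. Without Cdc42-/- replicate 2, 1 and 4 of its genes passed in these comparisons, where 2263 and 1820 of the 12233 genes tested did.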

How the data were processed

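RNA-seq of sorted splenic Treg cells was analysed in 6 libraries, grouped by the genotype and replicate number in the sample titles. The submitters' processing notes name TopHat and the build mm10, and the counting tool, annotation and strand setting are not given in the sources used here. The authors deposited 2 tables, each comparing a knockout genotype with WT. Their library columns are RPKM by the authors, worked out from the deposited values because the file headers name no unit. Group means stand beside them per the file headers, which in the values are a signal made by the authors (reads over a size factor per library), followed by the authors' fold change as a ratio and as a log2 value, with a p-value and adjusted p-value whose test is not named. Whole reads and gene lengths were recovered from the deposited RPKM and group means: 100% of values were whole within 0.01.

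Differences were tested with limma 3.58.1 in R 4.3.3 (lmFit, eBayes with trend) on log2(RPKM + 1), keeping genes whose mean over the libraries reached 0.5 RPKM, all 6 libraries in 1 fit with 3 residual degrees of freedom, and Benjamini-Hochberg adjustment over all genes tested at 0.05. Fold changes on this scale understate the change of low genes. Intervals are limma's at 95%. Each comparison had 13 alternatives. The steps were tested on simulated data. The members and lists were chosen with earlier results of these data known. Members were named whatever their values, and other list genes only if they passed, the 6 of smallest p in a list for each comparison, save other BCL2 family genes. By gene ID, 10 of 10 members matched RefSeq (GRCm38.p6), and 6 overlapped another RefSeq gene. A gene of these lists is not reported here, and the counts and medians leave it out.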

Additional observations from a re-analysis of the deposited data

How the results depend on the processing

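Precision is limited by the 2 libraries per genotype. Each member had at least 93 reads in every library, and the part of counting error in the spread was not tested. Members past the threshold numbered 0 in Cdc42+/- against WT under each of the 13 alternatives. In Cdc42-/- against WT they numbered 3, against 2 in the fit of those genotypes alone, and between 1 and 5 when a library was left out. In Cdc42-/- against Cdc42+/- they numbered 2, against 1 in the fit of those 2 genotypes alone, and between 0 and 3 when a library was left out. All genes past the threshold numbered 0, 1398 and 1006 in these 3 comparisons. With only the 2 genotypes compared, they numbered 60, 536 and 276. Array weights gave 88 in the first and 885 in the second, and voom gave 1 in the first. Leaving out a library gave 0 to 76, 259 to 4433 and 0 to 4263. Upper-quartile scaling made 731 of 1484 calls higher in Cdc42-/- against WT, where the fit as reported had 839 of 1398.

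The replicate numbers of the titles were checked as a block. The replicate 1 minus replicate 2 differences correlated across genes at 0.018 (WT and Cdc42+/-), 0.202 (WT and Cdc42-/-) and -0.034 (both knockout genotypes). Such correlations cannot tell whether libraries of the same number were handled together, and the titles state no pairing. With the replicate block, 0, 1144 and 809 genes and 0, 3 and 2 members passed.

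Signs turned only for members that did not pass. In Cdc42+/- against WT, Mcl1 was at -0.024 with upper-quartile scaling and -0.029 with voom, where Bad was at 0.10 and Bbc3 at -0.0015. Bcl2l11 in Cdc42-/- against Cdc42+/- was at -0.012 with upper-quartile scaling. Leaving out a library gave, in Cdc42+/- against WT, -0.071 to 0.085 for Mcl1, -0.0055 to 0.15 for Bax, -0.41 to 0.071 for Bid, -0.54 to 0.47 for Bad and -0.0074 to 0.091 for Bbc3. For Cdc42-/- against WT it gave -0.11 to 0.049 for Mcl1, -0.14 to 0.64 for Bcl2l11, -0.11 to 0.36 for Bid, -0.29 to 0.72 for Bad and -0.26 to 0.69 for Bbc3. In Cdc42-/- against Cdc42+/- it gave -0.10 to 0.032 for Mcl1, -0.36 to 0.43 for Bcl2l11 and -0.31 to 0.65 for Bbc3. The cause was not tested.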
